A study of Mus musculus with 18 samples.

Results

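The Th17 programme genes described here are 7 genes chosen by name from the 34162 genes of the table: the cytokines Il17a and Il22, the receptors Il23r, Il1r1 and Ccr6, and the transcription factors Rora and Ahr. All 7 were found, and all 7 passed the filter on low counts that left 14876 genes for testing. Messenger RNA had been measured in CD4+ effector T cells, about 500 sorted cells per library, 3 weeks after T cells were given to Rag-deficient mice, hosts without T or B lymphocytes of their own making. The cells carried either the CARko genotype (C57BL/6 Nr1i3-/-, which lacks the nuclear receptor CAR) or were wild type C57BL/6 cells marked by CD45.1+, an allele of the Ptprc gene. The groups were siLP CARko and siLP CD45.1+ from the lamina propria of the small intestine, cLP CARko and cLP CD45.1+ from that of the colon, and spleen CARko and spleen CD45.1+, with 3 libraries each and 18 in all. Every host lacked Rag and every donor cell was exposed to the same kind of transfer, so no group held unmanipulated cells. The sex and age of the animals, and whether a group's libraries stem from different animals, are not given in the sources used here, so p-values measure only the spread between these libraries.

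Th17 cells are CD4+ T cells that guard mucosal surfaces such as the gut. Cytokines including IL-6 and TGF-beta start the programme, IL-1 and IL-23 sustain it, and transcription factors such as RORα (Rora) bind the promoters and enhancers of its genes. The programme's products are IL-17A, which draws neutrophils, and IL-22, which acts on epithelial cells; AHR, a receptor for dietary and microbial ligands, is known to be needed for much IL-22 production. CCR6 guides Th17 cells towards its ligand CCL20 in the intestine.

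Library totals ran from 19605135 to 25436389 estimated counts, at which 3 counts, the floor used here, correspond to 0.108 to 0.185 CPM (counts divided by library size, with sizes scaled by edgeR's TMM method). Cd4 stood at 109 to 236 CPM in every library, as the label of CD4+ T cells requires. The 3 libraries of a group are called a, b and c after the ending of their column names, which is only a name. The 6 libraries a held 15466 to 16128 detected genes, fewer than any library b (17482 to 18819) or c (17013 to 18347). The deleted gene, Nr1i3, had 196 counts in the siLP library labelled CARko a, 0 to 29 in the other CARko libraries and 0 to 36 in the CD45.1+ libraries, so its count did not separate the genotypes. Without the siLP library labelled CARko a, the genotype averages were -4.00 for Il17a and -1.72 for Il1r1 on the log2 scale, each with the sign it had in all libraries, while Rora went to 0.0071, against 0.18 with all libraries.

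**Figure D1:**
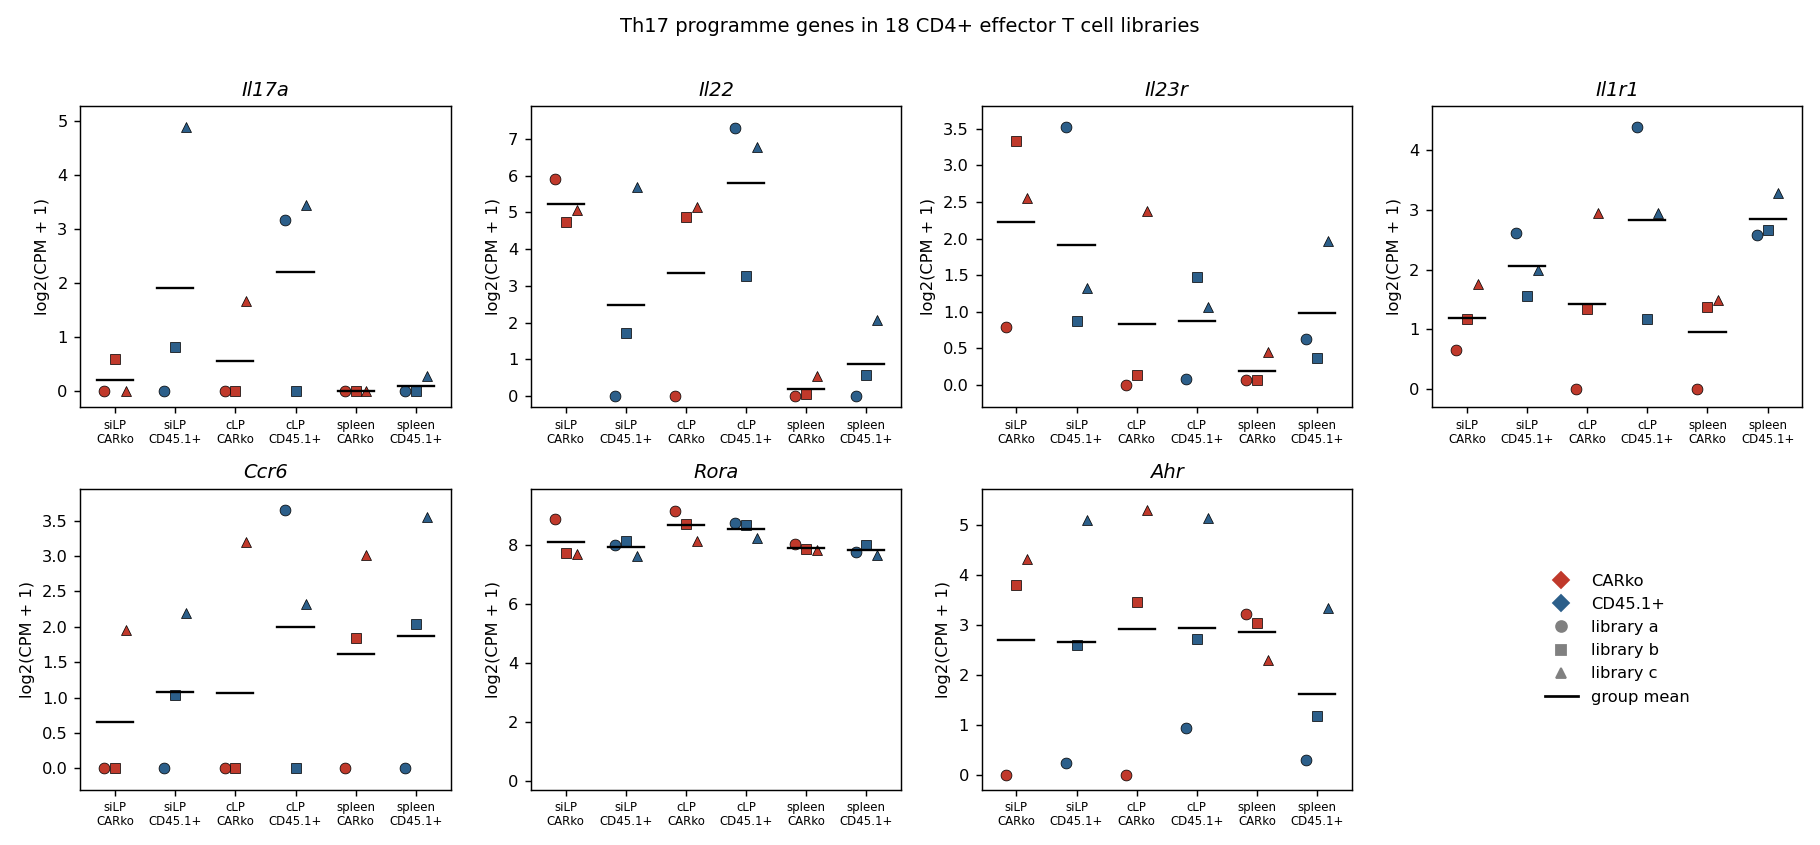
Level of each of the 7 genes in every library, as log2(CPM + 1) on the vertical axis, by organ and genotype. Symbols mark libraries a, b and c and the bars are group means. Rora was high in all libraries, Il22 was higher in most gut libraries than in the spleen, and Il17a, Ccr6 and Ahr ranged from 0 to clear expression within single groups.

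The members differed in how evenly they were detected. No library lacked Rora, which ran from 193.9 to 571.9 CPM. Il17a was at 0 in 11 of 18 libraries, Ccr6 in 8, Il22 in 4, Il1r1 and Ahr in 2 each, and Il23r in 1. In bulk RNA from sorted cells, fewer cells of a type and less RNA per cell cannot be told apart.

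Promoter stretches of 3 members are shown because they hold AGGTCA, the half-site that RORα binds. Each is the 250 bases before the gene's start in RefSeq (GRCm38.p6), 5′ to 3′ on the gene's strand, with capitals marking AGGTCA or its reverse complement TGACCT. The Il17a stretch lies at chr1:20730655-20730904 on the plus strand, that of Il23r at chr6:67491856-67492105 on the minus strand and that of Ccr6 at chr17:8235793-8236042 on the plus strand.
Il17a: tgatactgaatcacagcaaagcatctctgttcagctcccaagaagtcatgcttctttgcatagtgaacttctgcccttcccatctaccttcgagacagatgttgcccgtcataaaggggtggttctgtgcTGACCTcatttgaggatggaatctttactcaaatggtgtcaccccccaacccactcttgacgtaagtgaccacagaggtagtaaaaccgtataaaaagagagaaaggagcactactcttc
Il23r: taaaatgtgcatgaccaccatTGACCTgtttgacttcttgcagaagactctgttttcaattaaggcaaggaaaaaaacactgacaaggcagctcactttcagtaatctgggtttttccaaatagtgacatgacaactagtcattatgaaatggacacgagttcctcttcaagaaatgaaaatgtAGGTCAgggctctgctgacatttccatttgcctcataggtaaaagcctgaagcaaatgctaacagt
Ccr6: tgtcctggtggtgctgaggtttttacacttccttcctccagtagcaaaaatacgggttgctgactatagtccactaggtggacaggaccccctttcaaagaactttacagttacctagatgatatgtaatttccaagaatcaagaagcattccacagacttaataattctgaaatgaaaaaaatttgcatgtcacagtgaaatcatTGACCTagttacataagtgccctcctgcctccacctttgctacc
The match starts 120 bases before the start in Il17a and 44 before it in Ccr6, both on the reverse strand, and Il23r holds a reverse match at 229 and a forward match at 66. AGGTCA was present on either strand in 14% of 32851 windows of this length, and TAGGTCA, which the Ccr6 match and the forward Il23r match extend to, in 2.23%. No AGGTCA was found in the windows of Il22, Il1r1 and Rora, nor in a second window of Ccr6 (chr17:8242276-8242525), which is the reason it is not shown. The copy of Il22, Iltifb, held a reverse match at 115, and the table held no entry for Ahr. A match is a description of these letters only.

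Il17a, on chromosome 1 (GRCm38, chr1:20730905-20734496, plus strand, ENSMUSG00000025929), encodes the cytokine that names the lineage. In siLP it had 0, 0.506 and 0 CPM in CARko libraries a, b and c, against 0, 0.758 and 28.4 CPM in CD45.1+ libraries. In cLP it had 0, 0 and 2.19 CPM in CARko libraries, against 7.99, 0 and 9.89 CPM in CD45.1+ libraries. In the spleen every CARko library was at 0, and the CD45.1+ libraries had 0, 0 and 0.211 CPM, so no fold is given there. The groups overlapped in every organ at 0, and 3 gut CD45.1+ libraries held nearly all of the signal.

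Over the 9 libraries of each genotype, Il17a summed to 62 counts in CARko cells, with 7 libraries at 0, and to 1179 counts in CD45.1+ cells, with 4 at 0. Averaged over the organs, the log2 fold change was -4.19 ± 1.76 (SE, adjusted p = 0.805 by edgeR's quasi-likelihood test with Benjamini-Hochberg adjustment), a fitted value that depends on the prior count because the spleen CARko group was at 0. An exact permutation of genotype within organ (8000 assignments, two-sided) gave p = 0.0875 for a mean log2(CPM + 1) of 0.252 in CARko and 1.40 in CD45.1+ libraries (n = 9 each). It counts these libraries as independent, although libraries with the same column ending were alike across groups. Matched by column ending, the CARko library was lower in 5 of 9 pairs, higher in 0 and equal, at 0, in 4. Leaving out the siLP CD45.1+ library c brought the estimate to -2.64, and leaving out the cLP CARko library c brought it to -6.54.

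Il22 (chr10:118204942-118210047, plus strand, ENSMUSG00000074695) encodes IL-22. In siLP, Il22 had 59.2, 25.9 and 32.4 CPM in CARko libraries a, b and c, against 0, 2.31 and 50.7 CPM in CD45.1+ libraries. In cLP, Il22 had 0, 28.5 and 34.7 CPM in CARko libraries, against 156.6, 8.67 and 109.6 CPM in CD45.1+ libraries. In the spleen it had 0, 0.0470 and 0.453 CPM in CARko libraries, against 0, 0.491 and 3.16 CPM in CD45.1+ libraries. The genotypes overlapped in each organ, and 1 library of the siLP CD45.1+ group and 1 of the cLP CARko group stood at 0.

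Il22 rose in the colon relative to the spleen. It averaged 56.4 ± 62.6 CPM in cLP libraries and 0.692 ± 1.23 CPM in spleen libraries (SD, n = 6 each), a log2 fold change of 6.56 ± 1.65 (SE, adjusted p = 0.0413 by edgeR). It was the only member past the threshold of 0.05 in any of the 8 comparisons, and in this one 3.07% of all tested genes passed in either direction and 2.72% upwards. In siLP the mean was 28.4 ± 24.3 CPM (SD, n = 6), and the log2 fold change to the spleen was 5.82 ± 1.60 (adjusted p = 0.147 by edgeR), while DESeq2 gave an adjusted p of 0.0123. The call in cLP was narrow: it remained in 4 of 18 fits that each left out 1 library (without cLP CARko a or siLP CD45.1+ a, b or c), and the log2 fold change ran from 6.25 to 7.83 in those fits.

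The genotype difference of Il22 had no common direction. The log2 fold change of CARko to CD45.1+ cells was 1.15 ± 1.80 in siLP, -2.12 ± 1.85 in cLP and -2.79 ± 2.17 in the spleen (SE, adjusted p = 1 for each by edgeR). Single libraries moved these values: siLP was 5.06 without siLP CD45.1+ c and 0.60 without siLP CD45.1+ a, and the spleen was -5.35 without spleen CARko c and -0.54 without spleen CD45.1+ c. The test of the gut effect minus the spleen effect gave 2.31 ± 2.48 (adjusted p = 1), and 0.047 without spleen CD45.1+ c or 4.86 without spleen CARko c. By column ending, Il22 was lower in the CARko library in 5 of 9 pairs and higher in 3, with 1 pair at 0 in both.

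Near Il22 lies Iltifb, a near-identical copy (chr10:118289629-118295038, minus strand, ENSMUSG00000090461). The counting may divide reads between the copies, so the split between them is uncertain. The coding sequences have 540 bases each and differ at 9, so 98.3% of the bases are identical. Among 120-base windows without an intron in either gene, coding bases 31 to 150 are shown as the first with the most differences. This window differs at 2 places, which are in capitals. It lies at chr10:118205021-118205140 on the plus strand for Il22 and at chr10:118294840-118294959 on the minus strand for Iltifb (GRCm38).
Il22: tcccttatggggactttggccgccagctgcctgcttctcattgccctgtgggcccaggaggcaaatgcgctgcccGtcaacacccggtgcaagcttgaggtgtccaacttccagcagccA
Iltifb: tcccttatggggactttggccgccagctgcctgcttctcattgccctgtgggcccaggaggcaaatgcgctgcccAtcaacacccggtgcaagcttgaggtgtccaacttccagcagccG
In the gut libraries with counts, 0 to 19.6% of the counts of both copies were assigned to Iltifb, and in the spleen libraries with counts 33.3 to 100%. With the counts of both copies added, the cLP difference to the spleen was 5.27 on the log2 scale and its adjusted p was 0.0689 by edgeR. How many reads fit both copies was not measured.

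Markers of other cells known to make IL-17A or IL-22 were present at some level. The summed CPM of 7 gamma delta T cell markers was 207 to 663 in siLP CARko and 43.4 to 150 in siLP CD45.1+ libraries, 343 to 407 in cLP CARko and 68.2 to 818 in cLP CD45.1+ libraries, and 81.9 to 287 in spleen CARko and 1.80 to 97.8 in spleen CD45.1+ libraries. The sum and the delta chain did not go together: Trdc was at 0 in all 3 siLP CARko libraries, against 11.9, 6.64 and 1.61 CPM in siLP CD45.1+ libraries a, b and c. In cLP, Trdc had 0.0616, 3.30 and 0 CPM in CARko libraries, against 0, 37.2 and 2.72 CPM in CD45.1+ libraries. In the spleen, Trdc had 0, 0.282 and 0 CPM in CARko libraries, against 0, 8.79 and 1.48 CPM in CD45.1+ libraries. Tcrg-C2 ran from 71.3 to 475 CPM in the CARko libraries and from 0 to 544 CPM in the CD45.1+ libraries, and Sox13 did not exceed 0.744 CPM. The sum mainly followed Tcrg-C2, which averaged 172 CPM over all libraries, against 23.3 CPM for Tcrg-C4, 23.1 CPM for Tcrg-C1 and 4.11 CPM for Trdc. The summed CPM of 7 innate lymphoid cell markers was 27.7 to 58.5 in siLP CARko and 54.1 to 120 in siLP CD45.1+ libraries, 41.8 to 56.6 in cLP CARko and 54.0 to 81.2 in cLP CD45.1+ libraries, and 50.1 to 92.2 in spleen CARko and 55.1 to 116 in spleen CD45.1+ libraries, with Ncr1 at most 4.26 CPM. Klrb1f and Cd81 had the highest means of these 7 markers over all libraries (44.9 and 12.9 CPM), while Kit averaged 1.01 CPM and Rxrg 0.112 CPM. Single innate lymphoid markers differed in direction for CARko minus CD45.1+ cells. Of the 6 that could be tested, 3 lay above 0 and 3 below in siLP. In cLP and in the spleen, 2 lay above and 4 below. The part of these other cells in the values of Il17a and Il22 was not tested.

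Il23r (chr6:67422932-67491855, minus strand, ENSMUSG00000049093) encodes the chain of the IL-23 receptor that pairs with Il12rb1. In siLP, Il23r had 0.726, 9.06 and 4.85 CPM in CARko libraries a, b and c, against 10.5, 0.830 and 1.51 CPM in CD45.1+ libraries. In cLP, Il23r had 0, 0.0986 and 4.20 CPM in CARko libraries, against 0.0563, 1.78 and 1.09 CPM in CD45.1+ libraries. In the spleen it had 0.0527, 0.0470 and 0.362 CPM in CARko libraries, against 0.553, 0.286 and 2.91 CPM in CD45.1+ libraries. Each genotype reached its highest level in siLP, where all 6 libraries held at least 10 counts, against 3 of 6 in cLP and 2 of 6 in the spleen.

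The mean of Il23r was 4.58 ± 4.33 CPM in siLP, 1.20 ± 1.63 CPM in cLP and 0.702 ± 1.10 CPM in the spleen (SD, n = 6 each), and neighbours in this order differed by less than their spread. The log2 fold change of siLP to spleen was 3.35 ± 1.27 (SE, adjusted p = 0.375 by edgeR), that of cLP to spleen 1.41 ± 1.19 (adjusted p = 0.683) and that of siLP to cLP 1.94 ± 1.19 (adjusted p = 0.764). The genotype average was -0.74 ± 0.95 (adjusted p = 1). The gut effect of genotype minus the spleen effect was 3.34 ± 2.10 (adjusted p = 1).

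Il1r1 (chr1:40225080-40317257, plus strand, ENSMUSG00000026072) encodes the signalling receptor for IL-1. In the spleen it had 0, 1.60 and 1.81 CPM in CARko libraries a, b and c, against 4.98, 5.31 and 8.68 CPM in CD45.1+ libraries, so every CARko library lay below every CD45.1+ library. Of all tested genes, 3.09% separated so downwards and 3.23% upwards in the spleen, 4.52% downwards and 3.8% upwards in siLP, and 3.32% downwards and 4.09% upwards in cLP. No other member separated in any organ. In siLP, Il1r1 had 0.581, 1.26 and 2.37 CPM in CARko libraries, against 5.09, 1.95 and 2.98 CPM in CD45.1+ libraries. In cLP, Il1r1 had 0, 1.53 and 6.70 CPM in CARko libraries, against 19.8, 1.27 and 6.71 CPM in CD45.1+ libraries. In both gut organs the ranges overlapped.

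Over all organs Il1r1 averaged 1.76 ± 2.02 CPM in CARko and 6.31 ± 5.57 CPM in CD45.1+ libraries (SD, n = 9 each), and it was lower in the CARko library in 8 of 9 pairs by column ending. The exact permutation of genotype within organ gave p = 0.0102 (two-sided, not adjusted, 1 of 7 members tested so, of which the other p-values ran from 0.0875 to 0.914), with mean log2(CPM + 1) values of 1.19 in CARko and 2.58 in CD45.1+ libraries. Both this permutation and the count of pairs take the libraries as independent, although libraries with the same column ending were alike across groups. How many of all genes were lower in as many pairs was not computed. The edgeR fit gave a log2 fold change of -1.82 ± 0.85 (SE, unadjusted p = 0.0479, adjusted p = 0.859 over all genes), which does not pass. By organ the values were -1.24 ± 1.45 in siLP, -1.75 ± 1.46 in cLP and -2.47 ± 1.51 in the spleen (adjusted p = 1 for each by edgeR). Without the 6 libraries a, the average was -0.82 (adjusted p = 0.837 by edgeR). Against the spleen, Il1r1 differed by -0.31 ± 1.02 in siLP and by 0.91 ± 1.02 in cLP on the log2 scale. Myeloid cells also express Il1r1, and the summed CPM of 7 myeloid markers was 56.4 to 72.0 in siLP CARko and 88.8 to 161 in siLP CD45.1+ libraries, 24.6 to 96.1 in cLP CARko and 37.3 to 108 in cLP CD45.1+ libraries, and 26.8 to 43.3 in spleen CARko and 21.3 to 47.8 in spleen CD45.1+ libraries. These sums overlapped in cLP and in the spleen but not in siLP. Lyz2 and Cd68 had the highest means of the 7 markers over all libraries (29.8 and 23.0 CPM). Single markers differed in direction: for CARko minus CD45.1+ cells, 2 lay above 0 and 5 below in siLP, and likewise in the spleen. In cLP, 3 lay above and 3 below. The part of myeloid cells in the Il1r1 values was not tested.

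Il17a and Il1r1 lie on chromosome 1, as do Nr1i3 and Ptprc, the loci that mark the 2 genotypes. Il17a lies 117 megabases from Ptprc and 150 from Nr1i3, and Il1r1 lies 97.8 megabases from Ptprc and 131 from Nr1i3. Whether the donor strains differ elsewhere on this chromosome was not tested.

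Ccr6 (chr17:8236043-8257141, plus strand, ENSMUSG00000040899) encodes the receptor for CCL20. In siLP, Ccr6 had 0, 0 and 2.88 CPM in CARko libraries a, b and c, against 0, 1.05 and 3.59 CPM in CD45.1+ libraries. In cLP, Ccr6 had 0, 0 and 8.14 CPM in CARko libraries, against 11.6, 0 and 3.99 CPM in CD45.1+ libraries. In the spleen it had 0, 2.59 and 7.07 CPM in CARko libraries, against 0, 3.11 and 10.7 CPM in CD45.1+ libraries. The level went with the column ending: 5 of 6 libraries a were at 0, and all 6 libraries c had 2.88 to 10.7 CPM. The log2 fold change of CARko to CD45.1+ cells averaged -0.71 ± 1.49, that of siLP to spleen was -1.65 ± 1.86 and that of cLP to spleen was -0.04 ± 1.81 (SE), none of which passed in edgeR.

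Rora (chr9:68653786-69388246, plus strand, ENSMUSG00000032238) encodes RORα, which is also known from other T cells of tissues. In siLP, Rora had 465, 210.7 and 205 CPM in CARko libraries a, b and c, against 254, 278 and 194 CPM in CD45.1+ libraries. In cLP, Rora had 572, 414 and 281 CPM in CARko libraries, against 426, 408 and 302 CPM in CD45.1+ libraries. In the spleen it had 262, 232 and 224 CPM in CARko libraries, against 217, 255 and 201 CPM in CD45.1+ libraries. The genotypes overlapped in each organ, and the genotype average was 0.18 ± 0.18 on the log2 scale (SE, adjusted p = 1 by edgeR), and 0.0071 without the siLP library labelled CARko a.

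Rora was higher in the colon than in the spleen in every library: the 6 cLP libraries ran from 281 to 572 CPM, above the 6 spleen libraries at 201 to 262 CPM. Of all tested genes, 2.31% separated in this direction. The log2 fold change was 0.79 ± 0.23 (SE, adjusted p = 0.0740 by edgeR), just short of the threshold, and DESeq2 gave 0.0202. An edgeR fit with a term for column ending, given in the last section, brought Rora past the threshold. In the 18 edgeR fits that each left out 1 library, the adjusted p ran from 0.0355 to 0.18, and 17 stayed short of the threshold. The 1 that passed left out the siLP library labelled CARko a, which enters the shared estimate of spread. The difference of siLP to spleen was 0.20 ± 0.23, or -0.048 without that library, and that of siLP to cLP was -0.59 ± 0.23 (adjusted p = 0.413).

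Ahr (chr12:35497974-35535038, minus strand, ENSMUSG00000019256) encodes the aryl hydrocarbon receptor. In siLP, Ahr had 0, 12.9 and 19.0 CPM in CARko libraries a, b and c, against 0.180, 5.09 and 33.4 CPM in CD45.1+ libraries. In cLP, Ahr had 0, 9.96 and 38.5 CPM in CARko libraries, against 0.901, 5.62 and 34.4 CPM in CD45.1+ libraries. In the spleen it had 8.28, 7.24 and 3.94 CPM in CARko libraries, against 0.230, 1.27 and 9.15 CPM in CD45.1+ libraries. In both gut organs and in either genotype library a was lowest and library c highest. Over all organs, the median was 0.205 CPM in libraries a, 6.43 CPM in libraries b and 26.2 CPM in libraries c (n = 6 each).

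Ahr averaged 0.28 ± 1.11 higher in CARko cells on the log2 scale, and it differed by 1.29 ± 1.38 in siLP and 1.63 ± 1.39 in cLP from the spleen (SE), none of which passed in edgeR. Both differences from the spleen turned negative in a fit with a term for column ending, given in the last section. Libraries a, which had the fewest detected genes, had the lowest median of Ahr, and Ccr6 was at 0 in 5 of 6 of them. Single libraries differed from this. Spleen CARko a, with the fewest detected genes (15466), had the highest Ahr of its group, and cLP CD45.1+ a (16089) had the highest Ccr6 of any library. Whether the number of detected genes bears on these levels was not tested.

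**Figure D2:**
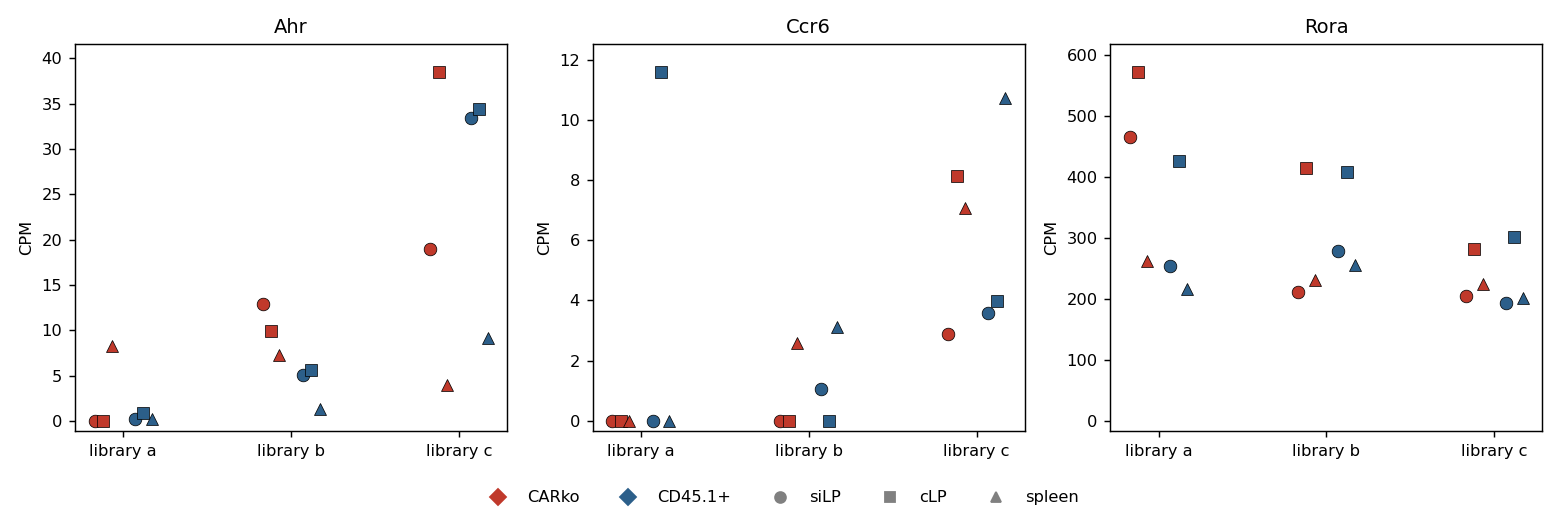
Ahr, Ccr6 and Rora in CPM by column ending, with colours for genotype and symbols for organ. Most libraries a lie near 0 for Ahr and Ccr6, the libraries c are highest for Ahr in the gut, and Rora shows no such gap.

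**Figure D3:**
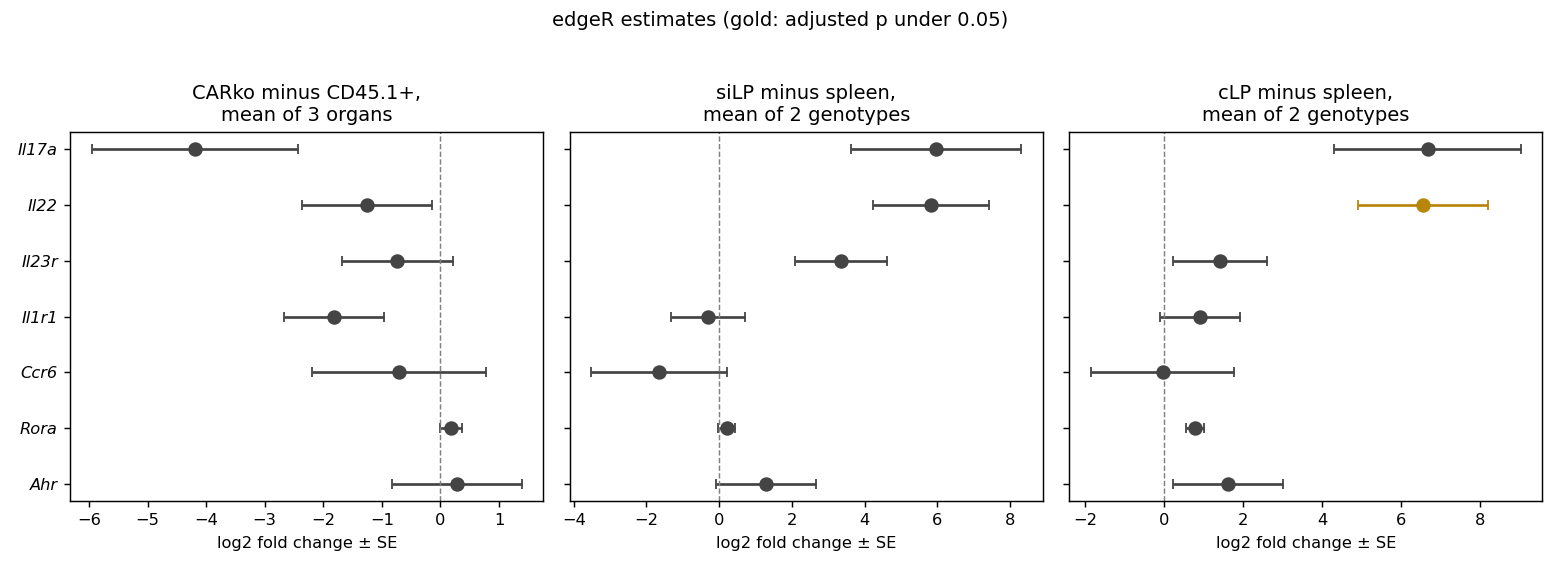
edgeR log2 fold change ± SE of each member for CARko minus CD45.1+ cells averaged over the 3 organs, for siLP minus spleen and for cLP minus spleen. Gold marks the 1 estimate with an adjusted p under 0.05, Il22 in cLP against the spleen (6.56 ± 1.65).

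As a list, the members had few calls. In the genotype average 2 lay above and 5 below 0, with a median log2 fold change of -0.74 against -0.01 over all tested genes, and 0 passed; 0.0134% of all genes passed. At an unadjusted p under 0.05 stood Il17a and Il1r1, as did 859 of the 14876 genes. In siLP against the spleen 5 lay above and 2 below 0 with 0 past (0.847% of all genes passed), and in cLP against the spleen 6 lay above and 1 below with 1 past. No gene passed in the genotype comparison of any single organ, in siLP against cLP or in the gut minus spleen difference (0% by edgeR), where 641, 363, 290, 1240 and 228 genes had an unadjusted p under 0.05 for siLP, cLP, spleen, siLP against cLP and the difference. DESeq2 called 35, 12, 17, 217 and 9 genes in these 5 comparisons.

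Among themselves the members correlated to different degrees across the 18 libraries. On log2(CPM + 1), Il17a and Il22 had a Pearson r of 0.64 and Il1r1 and Ccr6 one of 0.69, while Rora and Ahr had -0.44. As deviations from group means, these pairs had 0.804, 0.774 and -0.836. Rora was then negative with every other member (-0.407 to -0.836), and Il23r was at -0.115 with Il17a and with Il22. Rora averaged 366.1, 299.7 and 234.5 CPM in libraries a, b and c. All these values describe libraries that share organ, genotype and column ending. The genes most like each member over the 18 libraries, among 8373 with a mean of at least 5 CPM, were Csf2 for Il22 (r = 0.885), Slc17a9 for Ahr (0.878), Golph3 for Rora (0.897), Pdlim1 for Ccr6 (0.837), Lemd2 for Il1r1 (0.805), Hivep2 for Il23r (0.759) and Csnk2b for Il17a (0.723). Csf2 encodes the cytokine GM-CSF, and it is itself in the pathway list below.

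The other genes of the pathway were followed in a list of 40, of which 38 could be tested. In siLP against the spleen 29 lay above and 9 below 0 (median 0.79, against -0.01 over all genes), with 4 past the threshold, all higher (0.807% of all genes passed upwards). In cLP against the spleen 32 lay above and 6 below 0 (median 0.82, against 0.00 over all genes), with 6 past, all higher (2.72% of all genes). The summed CPM of 7 epithelial markers was 24.7 to 216 in cLP CARko and 19.9 to 28.3 in cLP CD45.1+ libraries, against 7.70 to 11.8 in spleen CARko and 8.85 to 13.0 in spleen CD45.1+ libraries. All 5 tested markers lay above 0 in cLP against the spleen, and Krt8 passed (8.24 ± 1.86, adjusted p = 0.0363 by edgeR). The part of epithelial RNA in the cLP differences, those of Il22 and Rora included, was not tested. In the genotype average 12 lay above and 26 below 0 (median -0.22), with 0 past.

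The pathway genes that rose in both gut organs were Nfkbiz, Irf4, Tiparp and Socs3. Nfkbiz, which encodes an IκB protein that promotes Th17 development in mice, had 120 to 189 CPM in siLP, 182 to 352 in cLP and 28.6 to 46.0 in the spleen, so that no gut library overlapped the spleen. Of all tested genes, 1.83% lay so above the spleen in siLP and 2.31% in cLP. Its log2 fold change to the spleen was 2.05 ± 0.19 in siLP (SE, adjusted p = 5.12e-05 by edgeR) and 2.68 ± 0.20 in cLP (adjusted p = 2.09e-06). Irf4, a factor that opens chromatin with BATF, had 40.3 to 115 CPM in siLP, 45.5 to 128 in cLP and 9.38 to 19.1 in the spleen, with log2 fold changes of 2.15 ± 0.30 (adjusted p = 0.00102) and 2.39 ± 0.30 (adjusted p = 0.000285).

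Tiparp, a target of AHR, had 57.6 to 103 CPM in siLP, 70.2 to 111 in cLP and 16.5 to 34.7 in the spleen, and its log2 fold changes were 1.52 ± 0.23 (adjusted p = 0.00283 by edgeR) and 1.70 ± 0.24 (adjusted p = 0.000758). Of the 5 AHR targets and regulators in the list, 3 could be tested, and Tiparp alone passed. Ahrr had log2 fold changes of 1.00 ± 0.45 in siLP (adjusted p = 0.487) and 1.32 ± 0.45 in cLP (adjusted p = 0.135), and Nqo1 had -1.23 ± 1.42 (adjusted p = 0.875) and -0.18 ± 1.39 (adjusted p = 0.982). Cyp1a1 was at 0 in 17 of 18 libraries. Socs3, an inhibitor of STAT3 signalling, rose by 1.97 ± 0.35 in siLP (adjusted p = 0.00840) and 1.79 ± 0.35 in cLP (adjusted p = 0.00972). In cLP, Stat3 (0.79 ± 0.18, adjusted p = 0.0274) and the protease gene Furin (1.65 ± 0.40, adjusted p = 0.0335) also rose. These genes act in many activated T cells besides Th17 cells.

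**Figure D4:**
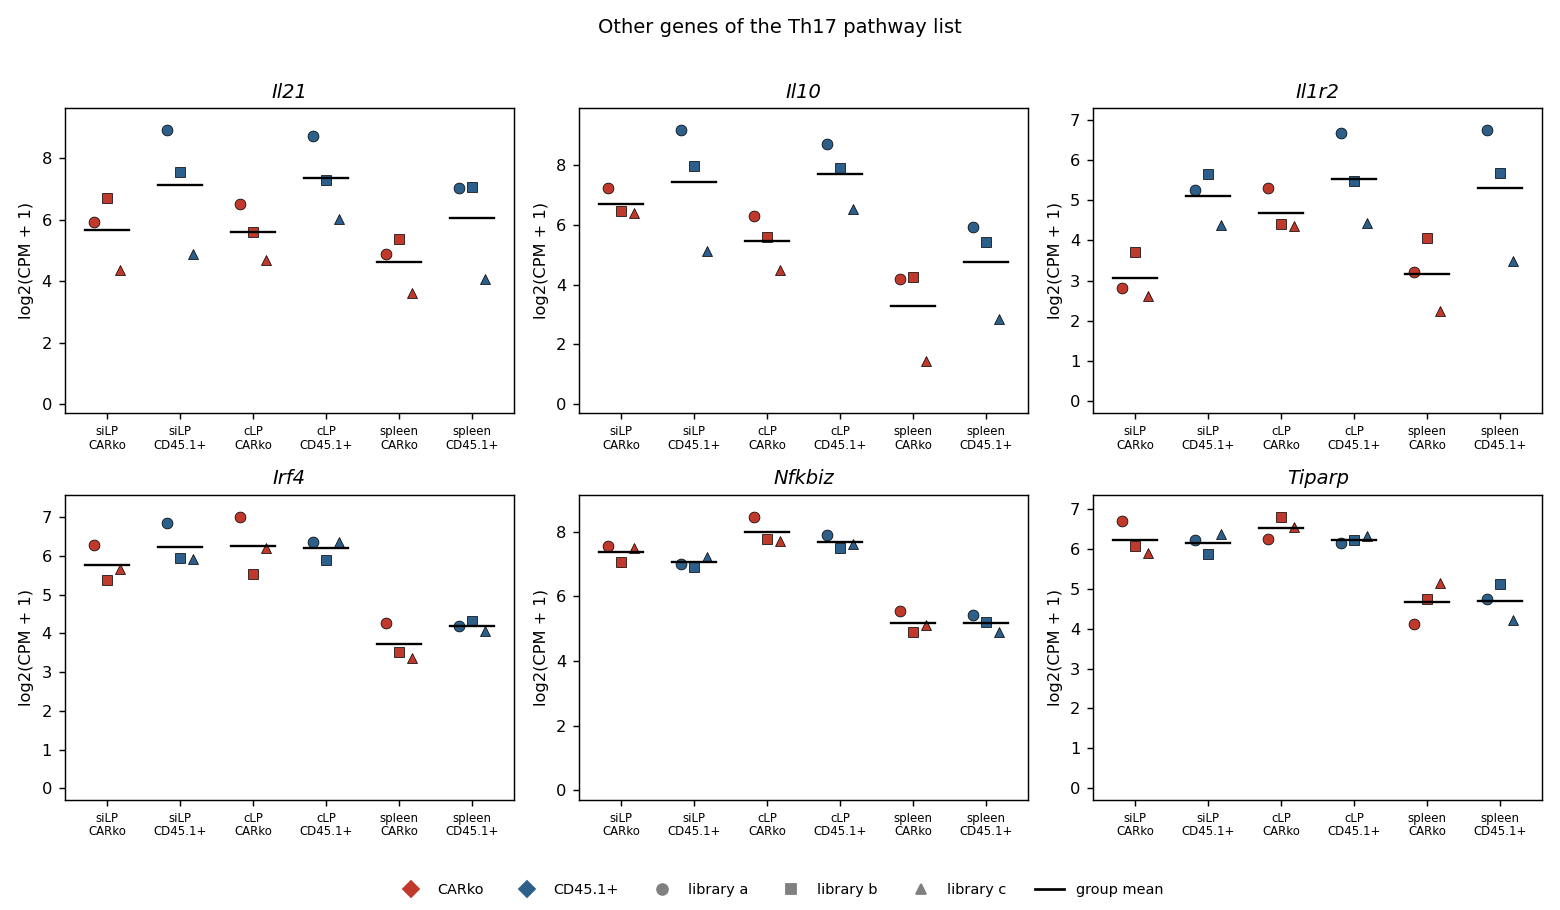
Il21, Il10, Il1r2, Irf4, Nfkbiz and Tiparp in every library, as log2(CPM + 1), by organ and genotype, with group means as bars. Irf4, Nfkbiz and Tiparp separate all gut libraries from all spleen libraries.

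In the genotype average no pathway gene passed. The smallest p-values belonged to Il1r2, the decoy receptor for IL-1, at 14.4 ± 10.9 CPM in CARko and 48.7 ± 34.3 CPM in CD45.1+ libraries (SD, n = 9 each; log2 fold change -1.95 ± 0.44, adjusted p = 0.217 by edgeR). Il21, a cytokine that Th17 cells and other helper cells make, averaged 47.3 ± 31.9 CPM in CARko and 178.1 ± 163.1 CPM in CD45.1+ libraries, with a log2 fold change of -1.89 ± 0.56 (adjusted p = 0.464) and a lower value in the CARko library of 9 of 9 pairs. Pairs of the same column ending are not independent of each other, and how many of all genes show such a count was not computed. Il10, a restraining cytokine, had -1.78 ± 0.56 (adjusted p = 0.525) and Batf -0.54 ± 0.25 (adjusted p = 0.846). Il17f, the partner of Il17a, had -0.61 ± 0.68 and Il12rb1 had -0.32 ± 0.32.

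The 6 CD45.1+ libraries a and b drew 52 to 72% of their T cell receptor beta V counts from the single segment Trbv26, and without these 6 libraries the genotype average was -1.77 for Il1r1 and -1.08 for Ahr. No such average is given for Il21 and Il10, so their libraries c follow, CARko before CD45.1+. Il21 had 19.5 and 28.65 CPM in siLP, 24.6 and 64.5 in cLP and 11.1 and 15.9 in the spleen. Il10 had 83.1 and 33.7 CPM in siLP, 21.5 and 90.9 in cLP and 1.72 and 6.28 in the spleen.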

How the data were processed

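Per the labels' protocols, Clontech SMART-Seq v4 cDNA went into NEBNext Ultra II DNA libraries, a kit that keeps no strand in its usual form. Per the file headers, the authors deposited an estimated count per gene and library. The submitters' processing notes name Salmon, DESeq2 and mm10, with no versions or roles, and the annotation is not given in the sources used here. Columns name organ and CD45.1 status but no replicate number. CD45.1-negative columns were taken as CARko by elimination, and the table's 37 other columns (abundance, length, import settings) were not used.

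Estimated counts were rounded. Of 34162 identifiers, 34083 matched a symbol in GENCODE vM21 (GRCm38) and 79 did not. Genes were kept by filterByExpr (14876), scaled by TMM and fitted with edgeR 4.0.16 (R 4.3.3) as 6 group means over 18 libraries; 8 comparisons were tested by glmQLFTest, two-sided, with Benjamini-Hochberg adjustment over all genes and a threshold of 0.05. SE was computed as |log2 fold change|/√F. For single members, genotype was also permuted exactly inside each organ; 3 against 3 libraries of 1 organ allow no p under 0.1. The reads carry no molecular identifiers, so the floor of 3 counts covers counting error only. Alternatives used DESeq2 1.42.0 and limma 3.58.1. The pipeline was tested on simulated data. The members and lists were chosen with earlier results of these data known. Named genes are the 7 members, Iltifb, Il17f, Il12rb1, pathway genes past the threshold, the 4 others with the smallest p in the genotype average, and the gene most like each member by Pearson r. RefSeq promoter windows were searched on both strands for AGGTCA and TAGGTCA, and also for an AHR core (GCGTG) and a STAT motif (TTCNNNGAA). Only AGGTCA and TAGGTCA are described above. One gene of the naming rule is not reported here. Ahrr, Nqo1 and Cyp1a1 were named after their values were seen.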

Additional observations from a re-analysis of the deposited data

How the results depend on the processing

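The direction and the side of the threshold of 32 member values were compared under each alternative. They stayed as reported for all 32 with DESeq2's size factors in edgeR and with no filter on low counts. Of 576 values from fits that left out 1 library, 550 stayed, 14 lost the call (all Il22 in cLP against the spleen), 1 gained it and 11 changed sign. Under 3 counts, the floor, lay 11 of 18 libraries for Il17a, 8 for Ccr6, 5 for Il22 and for Il23r, and 2 for Il1r1 and for Ahr, so differences among these low values are not measurable at this depth.

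With the DESeq2 Wald test, 35 genes passed for genotype in siLP, 12 in cLP, 17 in the spleen and 123 in the average, 400 in siLP against the spleen, 1054 in cLP against the spleen, 217 in siLP against cLP and 9 in the gut minus spleen difference, with 1 member in siLP against the spleen and 2 in cLP against the spleen. With limma's voomWithQualityWeights the counts were 2, 3 and 5 for genotype in siLP, cLP and spleen, 11 in the average, 251 in siLP against the spleen, 1828 in cLP against the spleen and 434 in siLP against cLP. There the Il22 average turned to 0.10 and Il1r1 in cLP against the spleen to -0.38; Il22 in cLP against the spleen had an adjusted p of 0.0507. With no filter, 10 genes passed in the average and 32 in siLP against cLP.

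With Il22 and Iltifb summed, chosen after seeing the data, 0 members passed in cLP against the spleen. The planned levels in TPM were not run, because those columns were not used here.

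The main fits did not take the column endings as pairing, which was kept for a correlation above 0.1 in every pair. Deviations of libraries with the same ending correlated above 0.1 in 40 of 45 pairs (median r 0.264). Of pairs with other endings, 8 of 90 did (median r -0.141). Libraries with the same ending were thus more alike than others, which the main fits leave out. With the replicate block by ending, 7 genes passed in the average, 243 in siLP against the spleen, 747 in cLP against the spleen with 2 members (Il22, and Rora at 0.75 with an adjusted p of 0.0167 by edgeR), and 16 in siLP against cLP. Under the block, Ahr turned to -0.49 in siLP against the spleen and -0.12 in cLP against the spleen, and Ccr6 to 1.73 in cLP against the spleen. Under the block, the exact permutation within organ and ending gave p = 0.0117 for Il1r1 and 0.0625 for Il17a. It counts the organs of an ending as independent.

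Without the 6 libraries a, 1 gene passed for genotype in siLP, 2 in cLP and 1 in the spleen, 749 in cLP against the spleen and 162 in siLP against cLP. The values that changed sign were Il1r1 for genotype in cLP (0.050), Il23r (0.067) and Rora (-0.084) in the average, and Rora in siLP against the spleen (-0.040). Without the 6 CD45.1+ libraries a and b, chosen after seeing the data, 1 gene passed in the average and Ahr turned to -1.08.

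Leaving out 1 library at a time, genes past ran from 1 to 3 in the average, 78 to 130 in siLP against the spleen, 207 to 485 in cLP against the spleen (members 0 to 1) and 0 to 10 in siLP against cLP. In the average Ahr ran from -0.29 to 1.04 and Il22 from -2.11 to 0.049. In cLP against the spleen Ccr6 ran from -4.50 to 0.74, Il1r1 from -0.012 to 1.22 and Il23r from -0.92 to 2.18. In siLP against the spleen Rora ran from -0.048 to 0.31. The cause of these shifts was not tested.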
